A study of Mus musculus with 24 samples.

Results

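The interferon-stimulated genes described here are 44 genes of the mouse that cells switch on in answer to interferon, and they were followed by RNA sequencing in the livers of 24 mice of a pair of inbred strains. The members were chosen by name, as rows of the gene count matrix whose identifier carries one of the 44 symbols in the mouse GENCODE annotation. The rule names genes and sets no threshold on a measured value, although the list was drawn up with earlier results of these data known. All 44 were found among the 53677 gene identifiers, and all 44 were among the 14533 genes with enough counts to be tested. By the better known inducer, 36 were listed as targets of type I interferon and 8 as targets of type II interferon (Irf1, Gbp2, Gbp3, Gbp7, Igtp, Irgm1, Iigp1 and Il18bp), although many members answer to both.

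Type I interferons signal through JAK1 and TYK2 to a complex called ISGF3, of which STAT2 and IRF9 are parts and which binds the interferon-stimulated response element (ISRE) of its target genes. Type II interferon, which is interferon gamma, signals through JAK1 and JAK2, acts at the gamma-activated sequence (GAS) of its target genes and induces IRF1. In liver, hepatocytes, endothelial cells and resident macrophages (Kupffer cells) all hold these receptors, and the proteins made restrict viruses and intracellular microbes.

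The study set the strains 129S1/SvImJ and C57BL/6J against each other on high-fat diet and on chow. High-fat diet was fed to 6 129S1/SvImJ mice and chow to 5, and in C57BL/6J 7 mice ate the high-fat diet and 6 ate chow, with 1 library of whole-liver RNA per mouse. The labels name no genetic change or drug in either strain, and they leave out how old the mice were, what the diets held and how long they were fed. Libraries held 6707013 to 13035534 gene counts for 129S1/SvImJ on high-fat diet, 7607255 to 9184270 for 129S1/SvImJ on chow, 8294723 to 13124881 for C57BL/6J on high-fat diet and 10162138 to 12826048 for C57BL/6J on chow, so that on chow every 129S1/SvImJ library was shallower than every C57BL/6J library. Levels are given as CPM, each gene's count as a part of the scaled library size, and in whole liver a smaller number of expressing cells and less RNA per cell cannot be told apart. The hepatocyte marker albumin (Alb) averaged 45350 ± 8176 CPM in 129S1/SvImJ on high-fat diet (SD, n = 6) and 66690 ± 3113 CPM in C57BL/6J on chow (SD, n = 6), with the other groups between them. Other hepatocyte markers did not follow this order. Of 6, Cps1 and Cyp2e1 were higher in 129S1/SvImJ than in C57BL/6J on high-fat diet (log2 fold changes of 0.85 and 0.68) and 0 were lower. Alb did not pass in that comparison (-0.13, adjusted p = 0.328 by edgeR).

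RefSeq promoter windows (build GRCm38.p6, from 250 bases before to 50 bases after the gene's start) were at hand for 33 of the 44 members. Windows for Ifi27, Usp18, Oas2, Mx1, Mx2, Dhx58, Parp9, Parp14, Rtp4, Zbp1 and Iigp1 were not used here. Both elements were searched as letters on both strands, GAAA, any 2 bases and GAAA again for the ISRE, and TTCNNNGAA for the GAS, where N is any base and matches may overlap. Some genes have more than 1 window, and a match in any of them was counted. At least 1 ISRE match was found for 17 of the 33 members (51.5%), against 3.99% of 27025 genes with a window. The split was 12 of 26 type I members (46.2%) and 5 of 7 type II members (71.4%). A GAS match was found for 8 of the 33 members (24.2%), against 9.55% of the same 27025 genes. These were 5 type I members (19.2%) and 3 type II members (42.9%). The windows of 5 members are printed because they span the range of the family, and capitals mark the ISRE and GAS letters. Oasl1 (chr5:114922990-114923289, plus strand) had the largest strain difference on high-fat diet and holds neither set of letters. Isg15 (chr4:156200769-156201068, minus strand) holds 3 overlapping ISRE matches, the first of which starts 78 bases before the gene. Ifit1 (chr19:34640639-34640938, plus strand) holds 2 ISRE matches on the opposite strand. Bst2 (chr8:71537423-71537722, minus strand), which rose on high-fat diet, holds 1 GAS and 2 ISRE matches that overlap in a single run. Gbp7 (chr3:142530086-142530385, plus strand) stands for the type II members, with 2 GAS matches and 1 ISRE match.
Oasl1: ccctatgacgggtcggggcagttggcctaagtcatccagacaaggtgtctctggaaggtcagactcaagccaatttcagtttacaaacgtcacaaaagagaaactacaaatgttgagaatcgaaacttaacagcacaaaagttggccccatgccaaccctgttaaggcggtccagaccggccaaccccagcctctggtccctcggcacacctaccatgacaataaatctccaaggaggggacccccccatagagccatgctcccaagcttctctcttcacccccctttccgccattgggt
Isg15: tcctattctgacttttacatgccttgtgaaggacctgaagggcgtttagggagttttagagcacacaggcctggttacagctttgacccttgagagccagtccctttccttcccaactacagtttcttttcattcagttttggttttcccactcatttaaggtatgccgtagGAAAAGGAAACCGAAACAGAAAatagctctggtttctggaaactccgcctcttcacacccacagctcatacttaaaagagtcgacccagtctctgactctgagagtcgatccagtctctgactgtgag
Ifit1: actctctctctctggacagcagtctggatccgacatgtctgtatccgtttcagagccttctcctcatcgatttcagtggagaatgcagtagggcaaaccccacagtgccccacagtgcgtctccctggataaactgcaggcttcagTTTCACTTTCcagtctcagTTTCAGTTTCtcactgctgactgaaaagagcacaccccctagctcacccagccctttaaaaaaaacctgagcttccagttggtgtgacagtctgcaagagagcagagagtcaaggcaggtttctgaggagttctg
Bst2: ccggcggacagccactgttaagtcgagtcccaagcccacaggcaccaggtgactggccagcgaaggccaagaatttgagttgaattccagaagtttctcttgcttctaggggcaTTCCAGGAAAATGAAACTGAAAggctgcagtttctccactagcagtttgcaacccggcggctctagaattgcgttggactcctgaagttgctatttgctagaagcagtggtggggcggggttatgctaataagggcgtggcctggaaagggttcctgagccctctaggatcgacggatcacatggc
Gbp7: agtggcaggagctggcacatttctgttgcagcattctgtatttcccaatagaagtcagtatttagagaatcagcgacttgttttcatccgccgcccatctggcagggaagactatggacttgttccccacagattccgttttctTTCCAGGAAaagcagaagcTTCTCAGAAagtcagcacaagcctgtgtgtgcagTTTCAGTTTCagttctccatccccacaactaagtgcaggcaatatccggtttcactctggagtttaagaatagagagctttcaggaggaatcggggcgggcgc
These letters describe the reference sequence of C57BL/6J and are no measure of factor binding.

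Per kilobase of annotated exon, and averaged over the means of the 4 groups, levels of the members ran from 64.2 CPM per kb for Bst2 to 0.211 CPM per kb for Oas3. Next below Bst2 stood Iigp1 at 58.6, Trim25 at 28.5, Ifi27 at 25.8, Lgals3bp at 22.1 and Dtx3l at 19.6 CPM per kb. At the low end stood Ifi44 at 0.618 and Mx1 at 0.530 CPM per kb. Among the 8 type II members the order was led by Iigp1, followed by Igtp at 12.5 and Irf1 at 8.20 CPM per kb, and Gbp3 was lowest at 2.01 CPM per kb.

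Most of the interferon-stimulated genes were lower in 129S1/SvImJ livers. On high-fat diet 36 of the 44 members were lower and 1 was higher in 129S1/SvImJ livers than in C57BL/6J livers, and on chow 36 were lower and 0 were higher (edgeR quasi-likelihood test, adjusted p under 0.05). Among all 14533 genes, 37% were called on high-fat diet (19.1% lower, 17.9% higher) and 25% on chow (12.5% lower, 12.6% higher). The median log2 fold change of the 44 members was -0.94 on high-fat diet and -0.86 on chow, against 0.00 and 0.01 over all genes tested, and 41 of 44 lay below 0 on each diet. The CPM of the strains did not overlap, with 129S1/SvImJ lower, for 25 members on high-fat diet and 24 on chow, where 7.18% and 7.65% of all genes did the same. The reverse, 129S1/SvImJ clear above C57BL/6J, held for 0 members on either diet and for 7.88% and 7.49% of all genes. Both contrasts called the same 35 members lower. Of the other 9, Stat2 was called lower on high-fat diet alone and Ifih1 on chow alone, Xaf1 was called higher on high-fat diet, and Ddx58, Herc6, Ifi35, Igtp, Irf1 and Mx2 were called on neither diet. No member passed the interaction test, so these differences between diets are not shown.

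**Figure D1:**
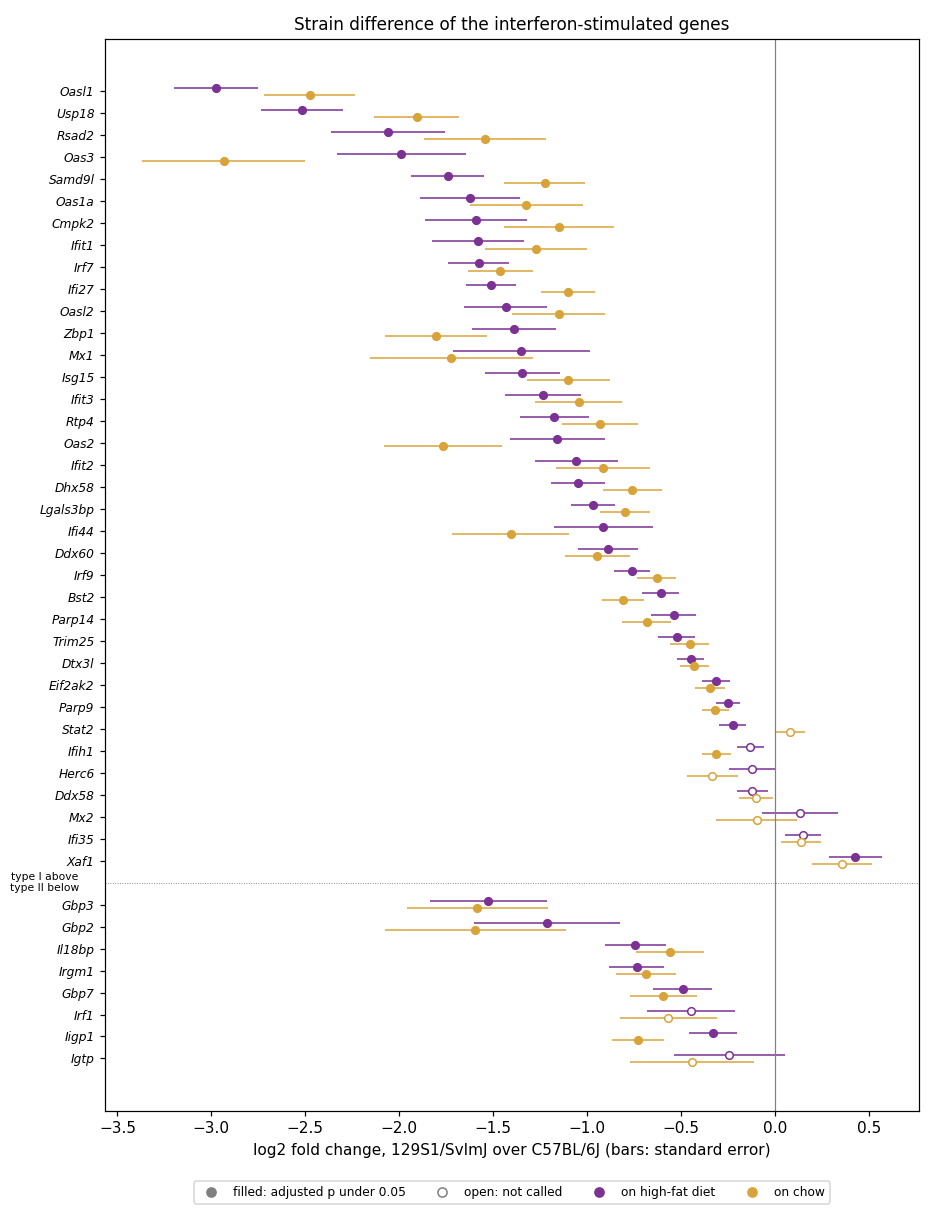
Log2 fold change of 129S1/SvImJ over C57BL/6J (x axis) for each of the 44 members (y axis), on high-fat diet and on chow, with bars for the standard error and filled points for an adjusted p under 0.05 in edgeR. Most points lie left of 0 on both diets, from -2.98 for Oasl1 on high-fat diet to 0.43 for Xaf1 on high-fat diet.

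Among the transcription factors, Irf7 and Irf9 were lower in 129S1/SvImJ on both diets, and Stat2 on high-fat diet. Irf7 (ENSMUSG00000025498.15, chr7:141262706-141266481, minus strand, mm10) is the factor that amplifies type I interferon production. It had a lowest, median and highest level of 6.11, 10.7 and 12.4 CPM in 129S1/SvImJ on high-fat diet, against 24.1, 28.5 and 43.8 CPM in C57BL/6J on high-fat diet. The chow-fed 129S1/SvImJ mice had 10.1, 10.5, 14.0, 10.3 and 13.8 CPM, against 25.0, 32.1 and 41.5 CPM in C57BL/6J. No 129S1/SvImJ mouse reached the lowest C57BL/6J mouse on either diet. The log2 fold change was -1.58 ± 0.16 on high-fat diet and -1.46 ± 0.18 on chow (SE, edgeR, adjusted p = 2.46e-08 and 5.92e-07). Irf9, the DNA-binding part of ISGF3, had a log2 fold change of -0.76 on high-fat diet and -0.63 on chow (adjusted p = 6.41e-07 and 5.1e-05 by edgeR). Stat2, its transactivating partner, had -0.23 on high-fat diet (adjusted p = 0.0136) and 0.08 on chow (adjusted p = 0.482). For Irf1, a factor induced by interferon gamma, the values of -0.45 and -0.57 did not pass (adjusted p = 0.145 and 0.119), with wide spread between mice (26.6 ± 9.76 CPM in 129S1/SvImJ and 36.5 ± 13.2 CPM in C57BL/6J on high-fat diet; SD, n = 6 and 7).

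The sensors of foreign nucleic acid split between large and small differences. Zbp1, which detects Z-form nucleic acid and starts cell death, averaged 2.94 ± 0.53 CPM in 129S1/SvImJ and 7.74 ± 3.24 CPM in C57BL/6J on high-fat diet (SD, n = 6 and 7), with -1.39 as its log2 fold change (edgeR, adjusted p = 2.29e-05). On chow the level was 1.90 ± 0.39 CPM in 129S1/SvImJ and 6.67 ± 1.97 CPM in C57BL/6J (SD, n = 5 and 6), a log2 fold change of -1.80. Dhx58 (LGP2), which regulates the other RIG-I-like receptors, had log2 fold changes of -1.05 and -0.76, and the helicase Ddx60 had -0.89 and -0.95, on high-fat diet and on chow in that order. Ifih1 (MDA5), the receptor for long double-stranded RNA, was called on chow only at -0.31 (adjusted p = 0.00453, against 0.159 on high-fat diet at -0.13). Ddx58 (RIG-I), the receptor for short RNA with a free phosphate end, had -0.12 on high-fat diet and -0.10 on chow and passed on neither (adjusted p = 0.263 and 0.464).

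Of the 7 genes for ISG15, ubiquitin and ADP-ribose modification, 6 were lower on each diet and Herc6, the mouse ISG15 ligase, passed on neither (-0.12 and -0.33, adjusted p = 0.456 and 0.075). Usp18 (ENSMUSG00000030107.10, chr6:121245906-121270917, plus strand, mm10) takes ISG15 off its targets and dampens signalling at the type I receptor. Its lowest, median and highest levels were 1.35, 1.69 and 2.57 CPM in 129S1/SvImJ on high-fat diet, against 7.05, 10.5 and 18.1 CPM in C57BL/6J on high-fat diet. In 129S1/SvImJ on chow the mice had 2.97, 3.46, 4.32, 2.81 and 3.68 CPM, against 9.01, 12.4 and 18.4 CPM in C57BL/6J. The strains stood clear of each other on both diets. The log2 fold change was -2.52 ± 0.22 on high-fat diet and -1.91 ± 0.23 on chow (SE, edgeR, adjusted p = 7.92e-10 and 3.0e-07). Isg15, the ubiquitin-like modifier itself, averaged 1.94 ± 0.37 CPM in 129S1/SvImJ and 5.01 ± 0.67 CPM in C57BL/6J on high-fat diet (SD, n = 6 and 7), with log2 fold changes of -1.35 there and -1.10 on chow. The partners Dtx3l and Parp9 moved less, at -0.45 and -0.25 on high-fat diet and -0.43 and -0.32 on chow. Their genes overlap by 682 bases on opposite strands, and the strand setting of the counting is not given in the sources used here. Trim25, the ubiquitin ligase that acts on RIG-I, had -0.52 and -0.45, and Parp14 had -0.54 and -0.68.

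All 9 RNA-directed effectors were lower in 129S1/SvImJ on both diets, with a median log2 fold change of -1.43 on high-fat diet and -1.27 on chow. Oasl1 (ENSMUSG00000041827.15, chr5:114923240-114937915, plus strand, mm10), an OAS-like protein known in mouse to hold back translation of Irf7 mRNA, had lowest, median and highest levels of 1.56, 1.94 and 3.07 CPM in 129S1/SvImJ on high-fat diet, against 12.2, 17.3 and 22.4 CPM in C57BL/6J on high-fat diet. On chow the 129S1/SvImJ mice had 3.34, 3.77, 3.10, 1.35 and 2.10 CPM, against 9.86, 15.9 and 21.2 CPM in C57BL/6J. The highest 129S1/SvImJ mouse stayed far below the lowest C57BL/6J mouse. The log2 fold change was -2.98 ± 0.22 on high-fat diet, a 7.87-fold lower level, and -2.48 ± 0.24 on chow, a 5.57-fold lower level (SE, edgeR, adjusted p = 6.98e-11 and 1.63e-08).

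Oas3 (ENSMUSG00000032661.9, chr5:120753098-120777661, minus strand, mm10), one of the enzymes that make the activator of RNase L, was the member with the lowest level. It had 0.450, 0.610 and 0.797 CPM as lowest, median and highest in 129S1/SvImJ on high-fat diet, against 1.44, 2.06 and 5.28 CPM in C57BL/6J. The chow-fed 129S1/SvImJ mice had 0.247, 0.628, 0.405, 0.225 and 0.131 CPM, against 1.28, 2.37 and 4.14 CPM in C57BL/6J. The groups did not overlap, though these levels rest on few counts per library. Its log2 fold change was -1.99 ± 0.34 on high-fat diet and -2.93 ± 0.43 on chow (SE, edgeR, adjusted p = 5.08e-05 and 1e-05). Its relatives Oas1a, Oas2 and Oasl2 had log2 fold changes of -1.62, -1.16 and -1.43 on high-fat diet and of -1.32, -1.77 and -1.15 on chow. Oas1a is uncertain, since 57.6% of the 50-base stretches of its exons also occur in Oas1g.

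The IFIT proteins bind viral RNA and block its translation. Ifit1 averaged 4.24 ± 0.63 CPM in 129S1/SvImJ and 12.7 ± 3.34 CPM in C57BL/6J on high-fat diet (SD, n = 6 and 7), with a log2 fold change of -1.58 there and of -1.27 on chow (edgeR, adjusted p = 1.76e-05 and 0.00101). Ifit2 had -1.06 and -0.92. Ifit3 had -1.23 and -1.04, and is uncertain because Ifit3b shares 51.2% of its 50-base stretches. For Ifit1, 7.13% of them occur in other genes. The kinase PKR (Eif2ak2), which halts translation on double-stranded RNA, differed least in this group, at -0.31 on high-fat diet and -0.35 on chow (adjusted p = 0.00123 and 0.00196), and its CPM did not overlap between the strains on either diet.

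Of the 6 other antiviral effectors, Mx1, Bst2, Rsad2, Cmpk2 and Samd9l were lower on both diets. Samd9l (ENSMUSG00000047735.14, chr6:3372257-3399572, minus strand, mm10), a large protein that restricts viruses and cell growth, had 7.10, 12.6 and 13.7 CPM as lowest, median and highest in 129S1/SvImJ on high-fat diet, against 22.8, 39.4 and 54.1 CPM in C57BL/6J. In 129S1/SvImJ on chow the mice had 11.99, 12.8, 13.9, 11.9 and 11.7 CPM, against 22.2, 27.9 and 38.3 CPM in C57BL/6J. All C57BL/6J mice stood above all 129S1/SvImJ mice. The log2 fold change was -1.74 ± 0.20 on high-fat diet and -1.23 ± 0.22 on chow (SE, edgeR, adjusted p = 2.43e-07 and 0.000162). The neighbouring genes Rsad2 (viperin, which makes a chain-terminating nucleotide) and Cmpk2, which lie on chromosome 12 between 26442746 and 26479837, had log2 fold changes of -2.06 and -1.59 on high-fat diet and -1.54 and -1.15 on chow. Mx1, a GTPase that traps viral nucleocapsids, had -1.35 and -1.72. Mx2, annotated as a polymorphic pseudogene, passed on neither diet (0.13 and -0.10, adjusted p = 0.643 and 0.793). Many inbred laboratory strains are known to carry defective alleles of both Mx genes.

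Ifi44, Ifi27, Rtp4 and Lgals3bp, 4 of the 6 members with less well defined roles, were lower on both diets. Ifi27 (ENSMUSG00000064215.13, chr12:103434211-103440239, plus strand, mm10), a small hydrophobic protein of internal membranes, had 15.2, 18.6 and 21.97 CPM as lowest, median and highest in 129S1/SvImJ on high-fat diet, against 34.4, 52.5 and 72.3 CPM in C57BL/6J. On chow the 129S1/SvImJ mice had 23.3, 26.3, 30.6, 23.4 and 23.8 CPM, against 42.4, 55.4 and 61.9 CPM in C57BL/6J. The strains were apart on both diets. Its log2 fold change was -1.51 ± 0.13 on high-fat diet and -1.10 ± 0.14 on chow (SE, edgeR, adjusted p = 1.96e-09 and 1.97e-06).

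Lgals3bp (ENSMUSG00000033880.11, chr11:118392751-118402092, minus strand, mm10), a secreted glycoprotein that binds galectins, had 39.9, 44.5 and 47.7 CPM in 129S1/SvImJ on high-fat diet, against 66.7, 82.7 and 114.6 CPM in C57BL/6J. The chow-fed 129S1/SvImJ mice had 44.4, 42.2, 54.0, 40.4 and 41.1 CPM, against 65.2, 75.5 and 92.5 CPM in C57BL/6J. Here too the strains did not overlap, and the log2 fold change was -0.97 ± 0.12 on high-fat diet and -0.80 ± 0.13 on chow (SE, edgeR, adjusted p = 5.79e-07 and 5.08e-05). Ifi44 had -0.91 and -1.41 and Rtp4 had -1.17 and -0.93, while Ifi35 had 0.15 and 0.14 and did not pass. Xaf1 (ENSMUSG00000040483.15, chr11:72301629-72313733, plus strand, mm10), which binds the apoptosis inhibitor XIAP, was the one member called higher in 129S1/SvImJ. Its level was 7.01, 10.4 and 14.4 CPM in 129S1/SvImJ on high-fat diet, against 6.26, 7.92 and 9.37 CPM in C57BL/6J. The groups overlapped, and the log2 fold change was 0.43 ± 0.14 (SE, edgeR, adjusted p = 0.0185). In 129S1/SvImJ on chow the mice had 9.77, 8.48, 10.1, 8.54 and 9.45 CPM, against 5.41, 6.97 and 9.20 CPM in C57BL/6J, and the difference did not pass (0.36, adjusted p = 0.103). The call on high-fat diet was lost in 2 of 24 fits without 1 mouse, up to an adjusted p of 0.0737 without 129S1/SvImJ high-fat mouse 5.

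**Figure D2:**
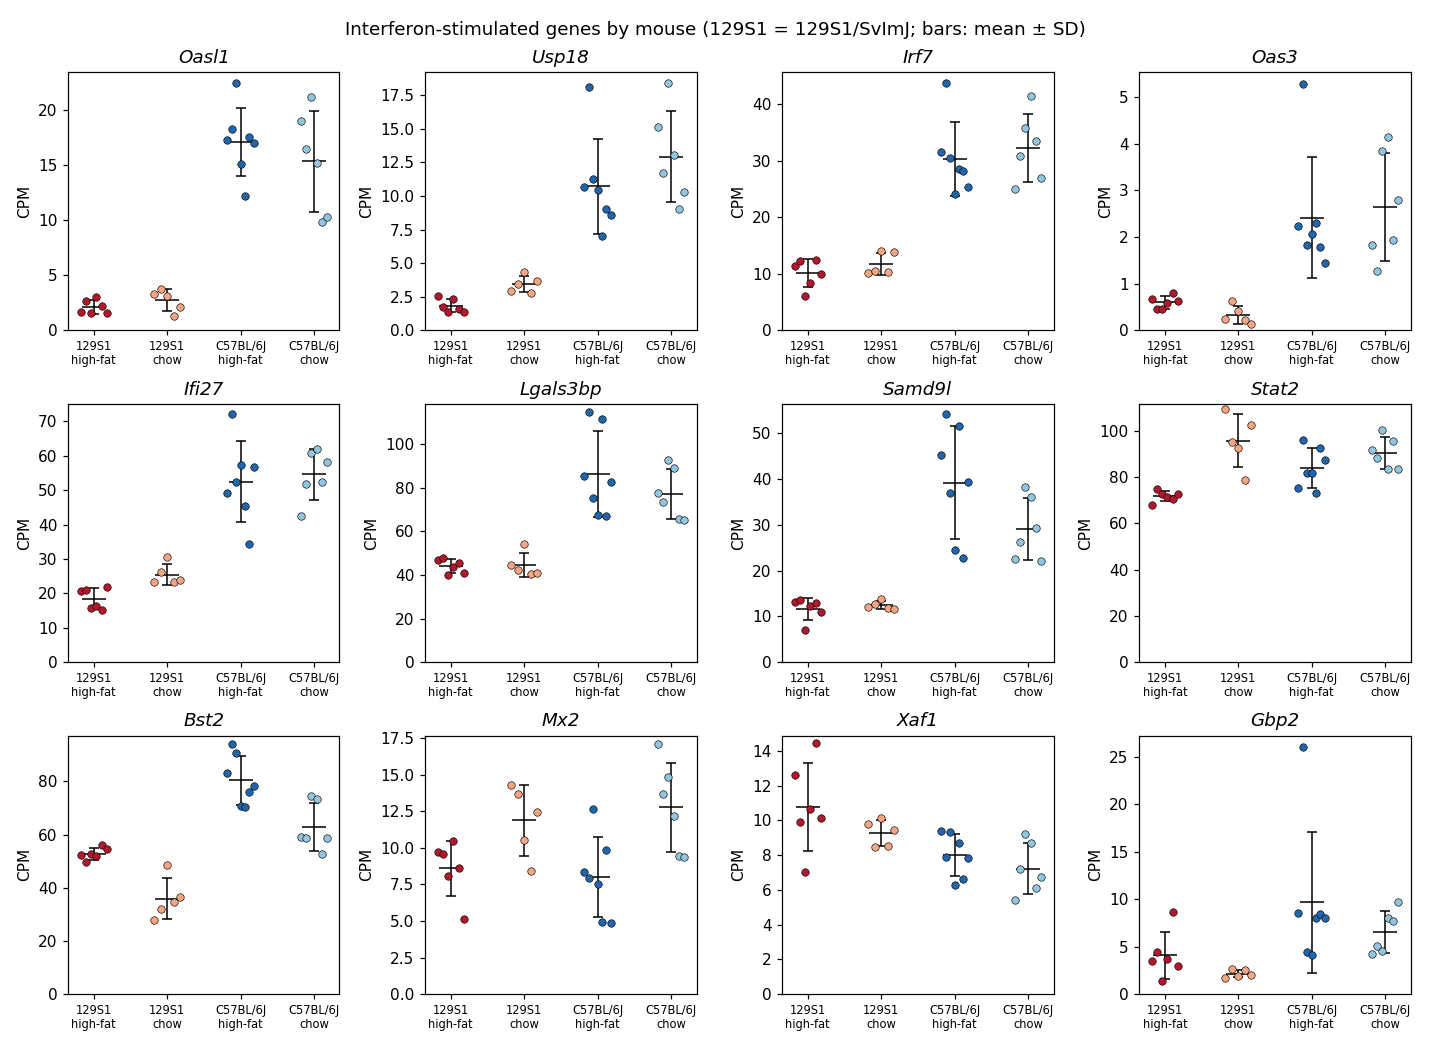
CPM (y axis, from 0) of 12 members in each of the 24 mice, by strain and diet (x axis), with bars for the mean ± SD of the group. For Oasl1, Usp18, Irf7, Ifi27, Lgals3bp and Samd9l every 129S1/SvImJ mouse lies below every C57BL/6J mouse, and for Bst2 the high-fat mice lie above the chow mice of their strain on average.

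The 6 interferon-inducible GTPases, which attack the membranes around intracellular microbes, differed most in Gbp3 and Gbp2, both guanylate-binding proteins. Gbp3 had log2 fold changes of -1.52 on high-fat diet and -1.58 on chow and Gbp2 of -1.21 and -1.60 (edgeR, adjusted p = 0.00051 and 0.00281 for Gbp3, 0.0173 and 0.0171 for Gbp2). Gbp2 averaged 4.10 ± 2.47 CPM in 129S1/SvImJ and 9.66 ± 7.45 CPM in C57BL/6J on high-fat diet (SD, n = 6 and 7), and 2.16 ± 0.41 CPM in 129S1/SvImJ and 6.56 ± 2.23 CPM in C57BL/6J on chow (SD, n = 5 and 6). On high-fat diet the strains overlapped and C57BL/6J mouse 2 alone stood at 26.0 CPM; without it the call was lost (adjusted p = 0.0571). Gbp7 had -0.49 and -0.59, and 12.7% of its 50-base stretches occur in other genes. Irgm1 had -0.73 and -0.69. Iigp1, the most abundant of these per length, averaged 282.9 ± 37.3 CPM in 129S1/SvImJ and 355.9 ± 78.2 CPM in C57BL/6J on high-fat diet (SD, n = 6 and 7), and its log2 fold change, -0.33 (edgeR, adjusted p = 0.0421), lay near the threshold. This call was lost in 9 of 24 fits without 1 mouse, up to an adjusted p of 0.118 without C57BL/6J high-fat mouse 2, and under 4 of the 9 other settings, up to 0.127. On chow it averaged 273.4 ± 21.9 CPM in 129S1/SvImJ and 453.6 ± 87.4 CPM in C57BL/6J (SD, n = 5 and 6), with -0.73 as the log2 fold change (edgeR, adjusted p = 0.000296). Igtp passed on neither diet (-0.24 and -0.44, adjusted p = 0.555 and 0.37), and it overlaps Irgm2 on the same strand. Il18bp, a secreted protein that neutralises interleukin 18, had -0.74 on high-fat diet and -0.56 on chow (adjusted p = 0.000705 and 0.0232). Its chow call was lost in 4 of 24 fits without 1 mouse, up to an adjusted p of 0.0657 without 129S1/SvImJ chow mouse 1.

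Set side by side, 30 of 36 type I members were lower on each diet, and so were 6 of 8 type II members. Of all genes tested, 19.1% were called lower on high-fat diet and 12.5% on chow. The median log2 fold change of the type I members was -1.05 on high-fat diet and -0.94 on chow, and that of the type II members was -0.61 and -0.64. No test was made between the lists. Non-overlap with 129S1/SvImJ lower was seen for 24 type I members on high-fat diet and 19 on chow, and for 1 type II member on high-fat diet (Irgm1) and 5 on chow. The same held for 7.18% of all genes on high-fat diet and 7.65% on chow, and 1 of 8 type II members is too few to tell from that share. The mean log2 CPM over the type I members was 3.26 ± 0.19 in 129S1/SvImJ on high-fat diet, 3.28 ± 0.16 in 129S1/SvImJ on chow, 4.24 ± 0.19 in C57BL/6J on high-fat diet and 4.19 ± 0.24 in C57BL/6J on chow (SD, n = 6, 5, 7 and 6). The highest 129S1/SvImJ mouse stood at 3.45 and the lowest C57BL/6J mouse at 3.94. Over the type II members the means were 4.20 ± 0.33, 4.02 ± 0.08, 4.88 ± 0.47 and 4.81 ± 0.23 in the same order of groups. Here the strains met, since 129S1/SvImJ high-fat mouse 5 reached 4.64 while C57BL/6J chow mouse 2 was at 4.52.

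Single mice stood apart from their groups. C57BL/6J high-fat mouse 2 had the highest level of its group in 24 of 36 type I members and in 8 of 8 type II members. 129S1/SvImJ high-fat mouse 3 had the lowest level of its group in 17 type I and 6 type II members. On chow, C57BL/6J mouse 3 was highest in 21 type I and 2 type II members, and 129S1/SvImJ mouse 4 was lowest in 18 type I and 2 type II members. The 2 high-fat mice also had the highest and the lowest summed level of 11 Kupffer cell markers in their groups, 624.3 and 133.4 CPM. With both high-fat mice left out, a choice made after seeing the data, 33 members were lower and 1 higher on high-fat diet and 37 were lower on chow. Ifi44, Gbp2 and Gbp7 were then no longer called on high-fat diet (adjusted p = 0.0619, 0.113 and 0.101 by edgeR).

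**Figure D3:**
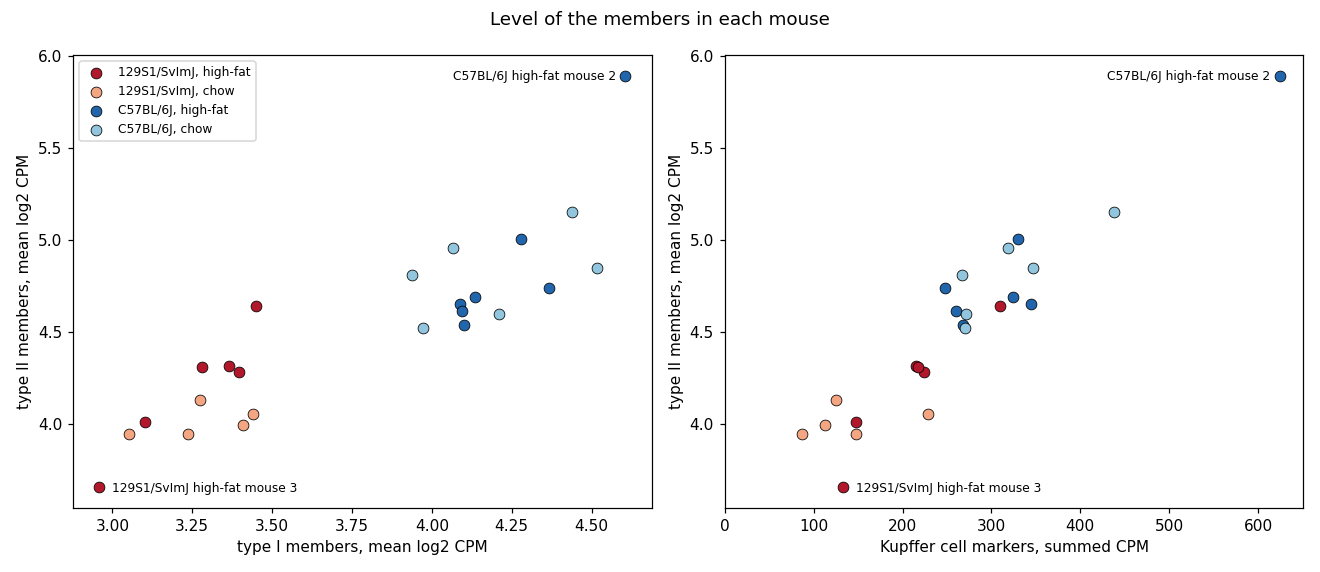
Mean log2 CPM of the 8 type II members (y axis of both panels) against the mean log2 CPM of the 36 type I members (left) and against the summed CPM of 11 Kupffer cell markers (right), 1 point per mouse. On the left axis the strains are apart, at most 3.45 in 129S1/SvImJ and at least 3.94 in C57BL/6J, and on the right axis C57BL/6J high-fat mouse 2 lies farthest out at 624.3 CPM.

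Markers of resident macrophages moved with strain as well. Of the 11 Kupffer cell markers, 8 were lower in 129S1/SvImJ on high-fat diet and 11 on chow, with median log2 fold changes of -0.83 and -1.25. Their summed level ran from 133.4 to 309.4 CPM in 129S1/SvImJ on high-fat diet, from 87.2 to 228.8 CPM in 129S1/SvImJ on chow, from 248.2 to 624.3 CPM in C57BL/6J on high-fat diet and from 266.6 to 437.9 CPM in C57BL/6J on chow. None of the 11 was at 0 in every mouse of a group. Without C57BL/6J high-fat mouse 2 and 129S1/SvImJ high-fat mouse 3, the high-fat calls of C1qc, Csf1r and Vsig4 were lost (edgeR, adjusted p = 0.0569, 0.176 and 0.082). The 4 B cell markers were lower on both diets at a summed level of 0 to 1.98 CPM in 129S1/SvImJ and 1.70 to 5.34 CPM in C57BL/6J. Of 6 sinusoidal endothelial markers, 3 were lower and 1 higher on high-fat diet and 4 were lower and 1 higher on chow, and of 6 hepatocyte markers 2 were higher on each diet. The high-fat calls of the endothelial markers Clec4g and Pecam1 and of the B cell marker Ms4a1 were also lost without those 2 mice. Their part in the strain difference of the members was not tested.

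Other genes of the pathway were counted in the same fit. Of 41 genes of interferon signalling and sensing, 31 were tested. On high-fat diet 12 were lower and 2 higher in 129S1/SvImJ, and on chow 9 were lower and 1 higher. Over all 14533 genes, 19.1% were called lower and 17.9% higher on high-fat diet, and 12.5% and 12.6% on chow. The median log2 fold changes of the pathway genes were -0.09 and -0.11, against 0.00 and 0.01 over all genes tested. Among the ligands, Ifnb1, Ifna1, Ifna2, Ifna4, Ifne, Ifnl2 and Ifnl3 had no counts in any library, which allows up to 0.447 CPM in the shallowest (3 counts, counting error only), and interferon gamma (Ifng) averaged at most 0.050 CPM in any group. Interleukin 18 (Il18), which induces interferon gamma and was counted with the ligands, was higher in 129S1/SvImJ, at 0.50 on high-fat diet and 0.44 on chow. The receptor subunit Il10rb was lower on both diets (-0.63 and -0.38). Ifnar2 was called on high-fat diet (-0.27), and Ifnar1 and Ifngr1 were called on chow (-0.17 and -0.39). Tlr3, the endosomal receptor for double-stranded RNA, had -0.44 and -0.59, Tlr7 had -0.86 and -1.50, and the RNA-editing enzyme Adar had -0.56 and -0.26. Irf8 and Ptpn6, which are expressed chiefly in blood cells, were also lower on both diets (-0.61 and -0.70 for Irf8, -0.45 and -0.33 for Ptpn6). With C57BL/6J high-fat mouse 2 and 129S1/SvImJ high-fat mouse 3 left out, 7 of these genes were lower and 2 higher on high-fat diet, and Cgas, Irf8, Tlr7, Tlr9 and Tyk2 were no longer called. The chow count fell to 4 without 129S1/SvImJ chow mouse 4.

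High-fat diet moved few members in either strain, and in 129S1/SvImJ the share called was close to that of all genes. In 129S1/SvImJ, 1 of 44 rose and 3 fell, where 10.4% of all genes were called (5.41% up, 5.01% down). In C57BL/6J, 1 rose and 1 fell, where 14.9% of all genes were called (7.66% up, 7.2% down). The median log2 fold change of the members was 0.01 in 129S1/SvImJ and 0.05 in C57BL/6J, against 0.00 and 0.01 over all genes tested. Groups on the 2 diets were clear of each other for 1 member that rose and 3 that fell in 129S1/SvImJ, against 3.96% and 3.78% of all genes, and for 0 members in C57BL/6J, against 1.78% and 2.11%. The type I median was -0.01 in 129S1/SvImJ and 0.04 in C57BL/6J, and the type II median was 0.17 and 0.12. These medians are small, and that of the type II members in C57BL/6J turned to -0.10 without C57BL/6J high-fat mouse 2.

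**Figure D4:**
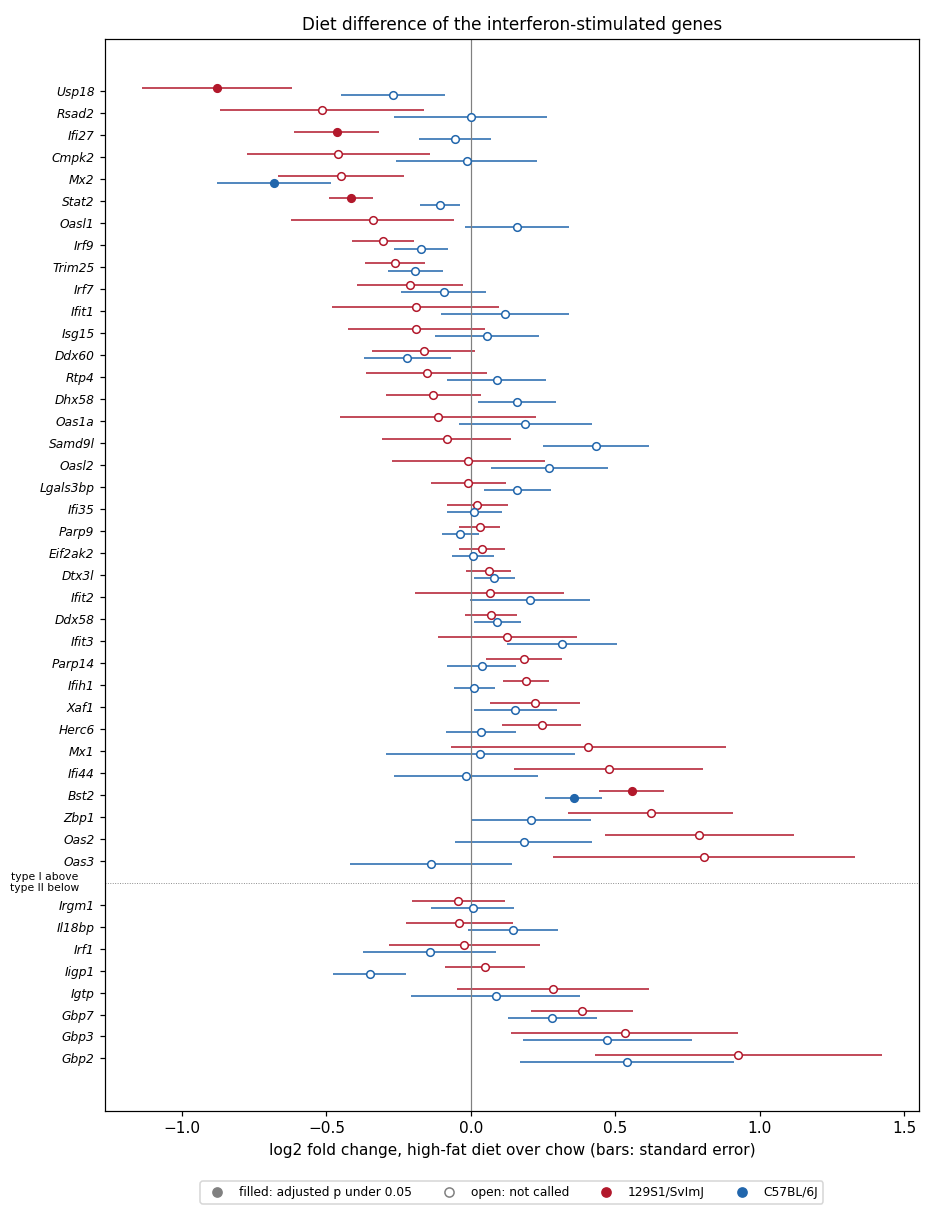
Log2 fold change of high-fat diet over chow (x axis) for each of the 44 members (y axis) in 129S1/SvImJ and in C57BL/6J, with bars for the standard error and filled points for an adjusted p under 0.05 in edgeR. Filled points are few, and Bst2 alone is filled in both strains, at 0.56 in 129S1/SvImJ and 0.36 in C57BL/6J.

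Bst2 (ENSMUSG00000046718.8, chr8:71534255-71537456, minus strand, mm10) encodes tetherin, which holds budding virus particles at the cell surface, and it was called higher on high-fat diet in both strains. Its lowest, median and highest levels were 49.7, 52.4 and 56.0 CPM in 129S1/SvImJ on high-fat diet, against 27.8, 31.9, 48.7, 34.7 and 36.5 CPM in the 5 chow mice. In C57BL/6J they were 70.4, 78.4 and 93.9 CPM on high-fat diet, against 52.5, 59.0 and 74.6 CPM on chow. The diets were apart in 129S1/SvImJ and overlapped in C57BL/6J. The log2 fold change of diet was 0.56 ± 0.11 in 129S1/SvImJ and 0.36 ± 0.10 in C57BL/6J (SE, edgeR, adjusted p = 0.00179 and 0.0154). Both calls held without any single mouse and under all 9 other settings. Set strain against strain, Bst2 was lower in 129S1/SvImJ, at -0.61 ± 0.10 on high-fat diet and -0.81 ± 0.11 on chow (SE, edgeR, adjusted p = 2.64e-05 and 3.69e-06), so it is the member called in opposite directions by strain and by diet. The promoter printed above, with its overlapping GAS and ISRE letters, belongs to this gene, and whether these letters bear on its rise was not tested.

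The members that fell on high-fat diet in 129S1/SvImJ were Stat2, Usp18 and Ifi27, and the diets did not overlap for any of them. Stat2 (ENSMUSG00000040033.16, chr10:128270559-128292849, plus strand, mm10) had 68.2, 72.2 and 75.02 CPM on high-fat diet, against 109.7, 95.1, 92.7, 78.9 and 102.5 CPM in the chow mice. The high-fat mice lay in a narrow band under all chow mice. Its log2 fold change was -0.41 ± 0.08 in 129S1/SvImJ (SE, edgeR, adjusted p = 0.000798). In C57BL/6J Stat2 had 73.0, 81.8 and 96.0 CPM on high-fat diet, against 83.3, 90.0 and 100.3 CPM on chow, and the change of -0.11 did not pass (adjusted p = 0.332). Usp18, whose levels are given above, had a log2 fold change of -0.88 ± 0.26 in 129S1/SvImJ (SE, edgeR, adjusted p = 0.0298) and -0.27 in C57BL/6J (adjusted p = 0.336). Ifi27 had -0.46 ± 0.15 in 129S1/SvImJ (SE, edgeR, adjusted p = 0.0427) and -0.06 in C57BL/6J (adjusted p = 0.817). The call of Usp18 was lost without 1 mouse in 7 of 24 cases and that of Ifi27 in 9 of 24, up to an adjusted p of 0.0769 and 0.116, both without 129S1/SvImJ chow mouse 3. Voom with a random block also ended both calls, up to an adjusted p of 0.116 for Usp18. This block was a number in the mouse labels that several mice of a group share, not the replicate number. A replicate block and the fit without a filter on low counts ended the call of Ifi27. Over these settings the adjusted p of Ifi27 reached 0.117.

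Mx2 (ENSMUSG00000023341.14, chr16:97535308-97560900, plus strand, mm10) was the member that fell in C57BL/6J. Its lowest, median and highest levels were 4.84, 7.92 and 12.7 CPM on high-fat diet, against 9.39, 12.9 and 17.1 CPM on chow. The diets overlapped, and the log2 fold change was -0.68 ± 0.20 (SE, edgeR, adjusted p = 0.0211). This call was lost in 2 of 24 fits without 1 mouse, up to an adjusted p of 0.0596 without C57BL/6J chow mouse 1. It was also lost when only the groups compared were fitted (adjusted p = 0.0538). In 129S1/SvImJ Mx2 had 5.14, 9.09 and 10.5 CPM on high-fat diet, against 14.3, 13.7, 10.5, 8.43 and 12.5 CPM on chow, and its change of -0.45 did not pass (adjusted p = 0.205).

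With 129S1/SvImJ high-fat mouse 3 and C57BL/6J high-fat mouse 2 left out, 7 members were called for diet in 129S1/SvImJ in place of 4. These mice were chosen after seeing the data. Over all genes, 798 of 14441 were then called higher and 755 lower in 129S1/SvImJ, against 786 and 728 of 14533 with all mice. Gbp2, Gbp7 and Oas2 were then higher on high-fat diet, with log2 fold changes of 1.10, 0.48 and 0.93 (edgeR, adjusted p = 0.0304, 0.0136 and 0.0375). In C57BL/6J Iigp1 was then lower, at -0.44 (edgeR, adjusted p = 0.0103). The 129S1/SvImJ mouse left out had the lowest Gbp2, Gbp7 and Oas2 of its group, and the C57BL/6J mouse had the highest Iigp1. Leaving them out moves these values in the direction seen, so these added calls are no independent evidence of a diet effect. Beside the diet contrast in 129S1/SvImJ, 1 of 11 Kupffer cell markers was called higher with all mice (C1qa, 0.72, adjusted p = 0.033), the median of the 11 was 0.71, and Adgre1, C1qb, Cd5l, Cd68, Timd4 and Vsig4 were called higher as well once the 2 mice were left out. Their part in the values of Gbp2, Gbp7 and Oas2 was not tested. Of the other pathway genes, Ikbke and Tlr3 rose and Ifnar2 and Adar fell in 129S1/SvImJ, and Tlr3 and Traf3 rose and Socs3 fell in C57BL/6J. The 129S1/SvImJ count fell to 1 without 129S1/SvImJ chow mouse 1.

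Whether diet acted differently in the strains was tested by the interaction, in which the C57BL/6J diet effect is subtracted from the 129S1/SvImJ one. By edgeR 0 of 44 members passed, where 0.296% of all genes did. By DESeq2 also 0 members passed, where 165 of all 14533 genes were called higher and 132 lower. At an unadjusted p under 0.05 there were 3 by edgeR and 3 by DESeq2. Chance alone passes a share of about 0.05 of tests at this cutoff, so counts this small are not told apart from chance. The 3 by edgeR were Stat2 (-0.31 ± 0.10 SE, adjusted p = 0.165), Iigp1 (0.40 ± 0.19 SE, adjusted p = 0.33) and Ifi27 (-0.41 ± 0.19 SE, adjusted p = 0.336). The calls of Stat2, Usp18 and Ifi27 in 129S1/SvImJ are therefore not shown to be particular to that strain.

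**Figure D5:**
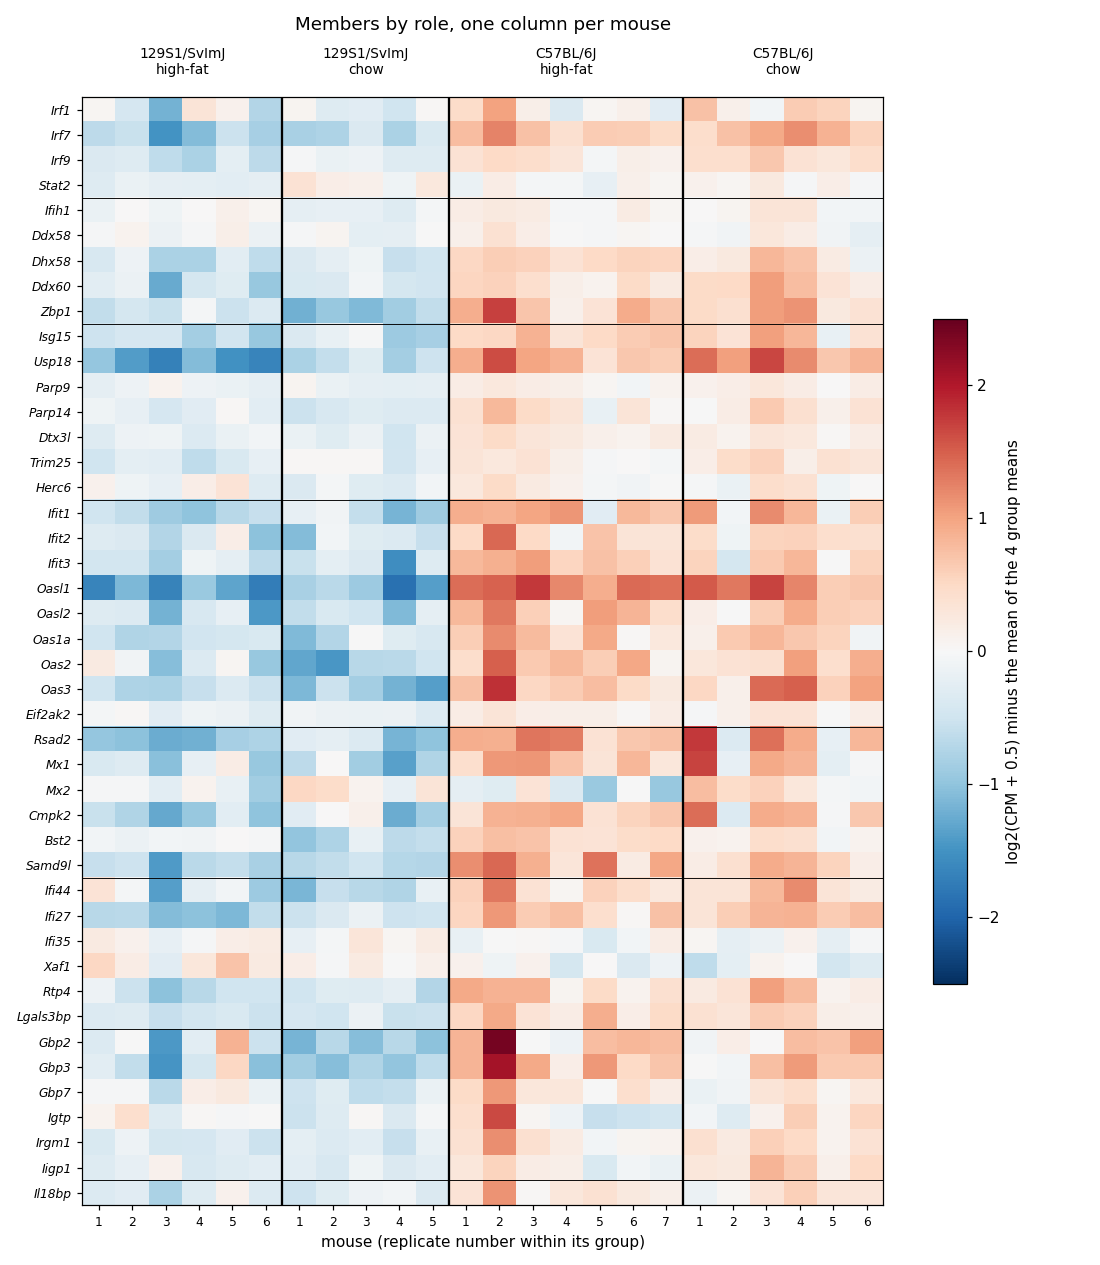
Each of the 44 members (rows, ordered by role) in each of the 24 mice (columns, by group), coloured by log2(CPM + 0.5) minus the mean of the 4 group means. The C57BL/6J columns are mostly red and the 129S1/SvImJ columns mostly blue, with Mx2, Ifi35 and Xaf1 among the exceptions. C57BL/6J high-fat mouse 2 is deepest red in the GTPase rows other than Iigp1.

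Mice of a group also differed among themselves, and not alike for all members. Among the C57BL/6J chow mice, Rsad2 ran from 6.29 to 29.1 CPM, Mx1 from 1.32 to 6.47 CPM and Cmpk2 from 3.74 to 13.7 CPM. In all 3 genes mouse 1 was highest and mouse 3 next, and mice 2 and 5 were the lowest. Among the type II members, in contrast, mouse 4 was highest in 4 of 8, and mouse 1 was lowest in 3. Members of steadier level were Eif2ak2, with 25.1 ± 2.37 CPM in 129S1/SvImJ on high-fat diet (SD, n = 6), and Dtx3l, with 97.4 ± 7.83 CPM in the same mice.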

How the data were processed

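Per the labels' protocols, total liver RNA was treated with DNase, depleted of ribosomal RNA and made into strand-marked libraries. Tools named in the submitters' processing notes, without their roles, are STAR 2.5.4b, Trimmomatic 0.36, DESeq2 1.26.0 and Bowtie2 2.2.3, with mm10 as the build. What did the counting, with which strand setting and annotation, is not given in the sources used here. As deposited by the authors, the data were raw gene counts, as 24 library files identical to the columns of 1 matrix, and a matrix of variance-stabilized values on a log2 scale, in which 0 counts read 4.243 and which served 1 alternative. mm10 is assembled from C57BL/6J, and how reads with 129S1/SvImJ variants aligned was not examined.

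Of 53677 identifiers, 53582 matched GENCODE M21, which gave symbols, coordinates and exon lengths. Tests used edgeR 4.0.16 under R 4.3.3 (filterByExpr, TMM scaling, robust quasi-likelihood fit with 1 mean per group over all 24 libraries, two-sided). There were 5 comparisons, with Benjamini-Hochberg adjustment over all 14533 genes and calls at an adjusted p under 0.05. The SE is the log2 fold change divided by the root of the F statistic, and CPM was computed from the deposited counts with the scaled library sizes. Mean log2 CPM used a prior count of 2. Alternatives were DESeq2 1.42.0, limma 3.58.1, other scaling, filters, samples and covariates. All 61 pairs of libraries within groups differed by more than sampling noise (chi-square at least 5.3 times its degrees of freedom). Mice are named here by replicate number. Same-numbered mice of different groups did not deviate together, so numbers were not treated as pairs. Voom used as its random block another number in the mouse labels, which several mice of a group share. No such number is shared between groups, so this fit cannot separate the numbers from strain and diet. The consensus correlation of mice that share a number was -0.00149. Every mouse's value, or the range and median, was given for up to 6 called members per direction and comparison by smallest adjusted p. The members and lists were chosen with earlier results of these data known. The values of 1 gene of the pathway are not reported here.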

Additional observations from a re-analysis of the deposited data

Results flagged for a closer look

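Within each group the mouse with the most extreme CPM was set against the others by Dixon's ratio, in 176 sets of 1 member and 1 group, of which 13 stood out. Chance alone marks about 1 set in 20. C57BL/6J high-fat mouse 2 was high in 5 of them. It had 26.0 CPM of Gbp2 (4.11 to 8.56 in the other mice of its group), 96.8 CPM of Irgm1 (41.1 to 56.5), 21.5 CPM of Il18bp (9.85 to 12.8), 9.14 CPM of Ifi44 (3.49 to 5.28) and 5.28 CPM of Oas3 (1.44 to 2.30). 129S1/SvImJ high-fat mouse 3 was low in Samd9l at 7.10 CPM (11.1 to 13.7) and high in Parp9 at 72.6 CPM (58.6 to 62.9). In 129S1/SvImJ on high-fat diet mouse 6 was also low in Mx2, at 5.14 CPM (8.09 to 10.5). Among 129S1/SvImJ chow mice, mouse 1 was high in Parp9 at 72.0 CPM (57.4 to 60.9), mouse 3 was high in Ddx60 at 12.8 CPM (9.58 to 10.4) and mouse 4 was low in Ifit3 at 1.80 CPM (4.08 to 5.13). C57BL/6J high-fat mouse 5 was low in Ifit1 at 5.82 CPM (11.7 to 16.1), and C57BL/6J chow mouse 2 was low in Ifit2 at 4.91 CPM (7.19 to 8.19). The causes were not tested.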

How the results depend on the processing

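No called gene changed sign under the 9 other settings or without any 1 of the 24 mice. List medians near 0 did without 1 mouse: the type II median for diet in C57BL/6J ran from -0.10 to 0.21, and the type I median from -0.02 to 0.11 for diet in C57BL/6J, from -0.10 to 0.02 for diet in 129S1/SvImJ and from -0.13 to 0.01 for the interaction. Without C57BL/6J high-fat mouse 2 and 129S1/SvImJ high-fat mouse 3 together, the type II median for diet in C57BL/6J was -0.09, and the type I median was 0.02 for diet in 129S1/SvImJ and 0.01 for the interaction. The type I median for diet in 129S1/SvImJ was also 0.01 with a replicate block and with no filter on low counts. Of the strain calls, 35 of 36 on chow and 32 of 37 on high-fat diet were kept everywhere, and of the diet calls 2 of 4 in 129S1/SvImJ (Stat2 and Bst2) and 1 of 2 in C57BL/6J (Bst2). Without 1 mouse the number of members called ran from 2 to 5 for diet in 129S1/SvImJ, 1 to 3 for diet in C57BL/6J, and 35 to 37 for strain on either diet. For the other pathway genes it ran from 1 to 4 for diet in 129S1/SvImJ, from 4 to 10 for strain on chow and from 10 to 15 for strain on high-fat diet. Members called for diet in 129S1/SvImJ were 2 under voom with the shared label number as a random block. They were 7 without the same 2 high-fat mice. For diet in C57BL/6J 1 member was called when only the groups compared were fitted. Pathway genes called for strain on high-fat diet were 9 without those 2 mice, and 1 passed the interaction with Rn7sk as a covariate. With limma on the variance-stabilized values the type I median was -0.70 for strain on high-fat diet and -0.69 on chow. In the main fit it was -1.05 and -0.94. The causes of these shifts were not tested.

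The labels' replicate numbers recur in every group. Over 30 same-numbered pairs the correlation of deviations ran from -0.21 to 0.281, and 5 of 20 libraries were closest to their own number. With a replicate block, 1 member rose and 2 fell with diet in 129S1/SvImJ, 1 rose and 1 fell in C57BL/6J, 36 were lower and 1 higher for strain on high-fat diet, 36 were lower on chow, and 0 passed the interaction. Depth limits the low members, of which Oas3 was lowest.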
